A study of Mus musculus with 6 samples.

Results

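The genes described here are 30 genes of inositol trisphosphate (IP3), calcium and NFAT signalling, measured by RNA sequencing in LT-HSC (long-term haematopoietic stem cells) from Itpkb-/- and wild-type mice. They were chosen by symbol, as phospholipases C, IP3 receptors, parts of store-operated calcium entry, calcium pumps, calmodulins and their kinases, calcineurin subunits, NFAT factors and inositol phosphatases. All 30 were found among the roughly 24000 genes of the expression table, and all 30 had enough signal to be tested. The Itpkb-/- (mutant) group consisted of 3 libraries from mice homozygous for an allele of Itpkb induced with the mutagen ENU and named Ms T-less, and the wild-type group of 3 libraries from age-matched littermate controls. All mice were on the C57BL/6 background. Each library was made from a separate pool of 4 mice, so replicates are pools and not single animals. At least 10000 cells per pool were sorted, after lineage depletion, as LSK cells with CD150 on their surface and without CD34, CD48 or Flk2. The labels do not say whether the ENU line was cleared of other induced changes, and the allele was present in every cell of the animal and not in blood cells alone.

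Phospholipase C enzymes cut a membrane lipid into diacylglycerol and IP3, and IP3 opens receptor channels that release calcium from the endoplasmic reticulum. STIM proteins sense the emptied store and open ORAI channels in the plasma membrane, and the calcium that enters binds calmodulin, which activates calcineurin. Calcineurin removes phosphate from NFAT transcription factors so that they enter the nucleus, while pumps return calcium to the store or out of the cell. The kinase encoded by Itpkb converts IP3 to inositol tetrakisphosphate, and phosphatases such as those of the INPP5, INPP1 and IMPA families degrade IP3 and its products.

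Promoter sequences are shown for the member with the largest difference between genotypes (Nfatc2), for the phospholipase C members that moved in opposite directions (Plcg2 and Plcb2), and for the internal start of Rcan1, a start known to respond to calcineurin. Each is the 250 bases before a RefSeq transcription start on build GRCm38.p6, read 5′ to 3′ on the strand of the gene. Capitals mark GGAAA, the core letters that NFAT factors bind, or its reverse complement TTTCC. These letters also contain GGAA, the core of ETS factor sites, so a match does not tell the families apart. The Nfatc2 window lies at chr2:168601658-168601907 (minus strand), the Rcan1 window at chr16:92400079-92400328 (minus strand), the Plcg2 window at chr8:117498025-117498274 (plus strand) and the Plcb2 window at chr2:118728439-118728688 (minus strand).
Nfatc2: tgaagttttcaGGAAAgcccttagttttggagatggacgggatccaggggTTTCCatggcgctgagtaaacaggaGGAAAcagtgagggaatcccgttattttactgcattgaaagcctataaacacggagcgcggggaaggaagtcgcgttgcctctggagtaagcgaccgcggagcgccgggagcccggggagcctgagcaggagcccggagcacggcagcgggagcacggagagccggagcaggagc
Rcan1, internal start: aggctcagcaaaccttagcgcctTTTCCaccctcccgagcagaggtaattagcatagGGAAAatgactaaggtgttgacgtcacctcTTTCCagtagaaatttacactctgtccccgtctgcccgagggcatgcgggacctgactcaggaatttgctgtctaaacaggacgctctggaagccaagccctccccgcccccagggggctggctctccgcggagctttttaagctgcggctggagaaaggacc
Plcg2: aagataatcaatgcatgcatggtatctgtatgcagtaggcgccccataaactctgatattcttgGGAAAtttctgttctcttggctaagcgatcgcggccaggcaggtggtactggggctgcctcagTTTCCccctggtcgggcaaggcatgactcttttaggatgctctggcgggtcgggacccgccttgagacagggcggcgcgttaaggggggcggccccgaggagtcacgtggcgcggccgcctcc
Plcb2: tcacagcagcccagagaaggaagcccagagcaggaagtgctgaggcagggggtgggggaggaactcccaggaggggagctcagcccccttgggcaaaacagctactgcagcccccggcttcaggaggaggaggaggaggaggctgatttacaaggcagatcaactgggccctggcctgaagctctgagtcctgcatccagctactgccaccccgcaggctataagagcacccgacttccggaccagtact

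The Nfatc2 window held 3 matches, which began 239, 200 and 175 bases before the start, and the internal Rcan1 window also held 3, which began 227, 193 and 163 bases before its start. A second annotated start of Nfatc2 had 1 match in its window, and the other annotated start of Rcan1 had 0. The window of Ppp3cb, a member that was not called, held 3 as well, beginning 223, 186 and 82 bases before its start. The Plcg2 window held 2 matches and the Plcb2 window held 0. At least 3 matches were found in 6.39% of all 32851 mouse promoter windows of this length. RefSeq entries were matched for 22 of the 30 members, with 28 windows, and 14 of these (50%) held at least 1 match on either strand, against 55.6% of all windows. The members' windows had a median GC content of 66.6%, against 52.4% over all windows. A match describes letters only, and expression per gene does not tell which start was used.

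Sequencing gave 4024203 to 7470329 reads assigned to genes per library. Levels are given as normalized CPM, which are counts scaled to library size and to a further factor per library. That factor, recovered from the values, was 0.961 to 1.02. In these units 1 read was worth 0.131 to 0.249. Itpkb itself was at 10.2, 14.0 and 18.2 normalized CPM in mutant libraries 1 to 3, against 22.1, 23.6 and 25.1 in wild-type libraries 1 to 3. The mutant libraries were thus all below the wild-type ones, yet the log2 difference of -0.73 (SE 0.24) was not called by limma (adjusted p = 0.172) and was called with the libraries paired by their number (adjusted p = 0.0541). The labels do not say what the allele does to the RNA. The sort's own markers were present: 8 LT-HSC markers summed to 1604 to 2149 normalized CPM in the mutant group, against 2706 to 3295 in the wild type, and 5 of the 8 fell (6 with the pairing). Summed multipotent progenitor markers were at 518 to 796 against 256 to 346, with 3 of 6 higher by the same test (5 with the pairing). Megakaryocyte and platelet markers were at 1638 to 2786 against 1229 to 1332, with 5 of 12 higher (7 with the pairing). Dendritic markers were at 329 to 419 against 172 to 201, with 3 of the 5 tested higher (5 with the pairing). Endothelial markers summed to 185 to 243 against 259.9 to 276, with 2 of the 6 tested lower (with the pairing also 1 higher). Erythroid markers summed to 628 to 1150.2 against 1039 to 1252, with 2 of 8 higher and 1 lower (4 and 3 with the pairing), and monocyte and macrophage markers to 23.1 to 52.3 against 15.6 to 25.4, where limma called 0 of the 6 tested, or 2 higher with the pairing (unadjusted p under 0.05 in 2, edgeR 0). Granulocyte markers ranged from 958 to 18513 against 738 to 3828, highest in Itpkb-/- library 2, and limma called 0 of 11 (unadjusted p under 0.05 in 0, edgeR 0), but all 11 as higher with the pairing. T cell markers summed to 9.58 to 11.3 against 9.57 to 11.9 (Cd3g, Cd8a and Cd8b1 at 0 everywhere), and B cell markers to 31.8 to 36.8 against 31.2 to 39.5 (Pax5 at 0). NK cell markers summed to 3.80 to 9.17 against 2.23 to 4.97 (Klrd1 at 0), with 1 of the 2 tested higher by limma and 0 by edgeR. Mast cell and basophil markers summed to 10.2 to 32.8 against 10.01 to 20.1 (Mcpt4 at 0), with 2 of the 5 tested higher by limma and 1 by edgeR. The part of these marker levels in the results below was not tested. In such bulk libraries, fewer cells of a type and less RNA per cell cannot be told apart.

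Of the 30 genes, 4 differed between genotypes by limma (Benjamini-Hochberg adjusted p no higher than 0.15, the false discovery limit of the study): Plcg2 and Atp2a2 rose and Nfatc2 and Plcb2 fell in the Itpkb-/- libraries. That is 13.3% of the members, beside 661 of 12008 tested genes (5.5%) called in either direction, 2.27% higher and 3.24% lower. The study also set limits of 1.4 on the fold and 4 on log2 CPM. Of the 4 called members Nfatc2 alone passed that fold, with a ratio of the mutant to the wild-type mean of 0.538, while the ratio was 0.736 for Plcb2, 1.37 for Plcg2 and 1.31 for Atp2a2. At an adjusted p of at most 0.05, 1 member (Nfatc2) was called, beside 1.52% of all genes. Scaled by total count alone, 0 members rose and 2 fell, Nfatc2 and Plcb2, beside 200 genes higher and 410 lower of 12008. Plcg2 (log2 difference 0.41, limma adjusted p = 0.153) and Atp2a2 (0.35, adjusted p = 0.201) no longer passed. The remaining 26 members did not pass, among them all calmodulin, calcineurin and inositol phosphatase genes. Of the 30 log2 differences 11 were positive and 19 negative, their median was -0.05, and the median over all tested genes was 0.00. In 15 of the 30 members the size of the log2 difference was under 0.2, beside 5576 of all 12008 tested genes.

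The labels number the libraries 1 to 3 in both genotypes, and same-numbered libraries deviated together across genes, so a fit with the replicate number as a block was also made. With the block, 8 members (26.7%) were called: the same 4, and Plcb4, Itpr3, Orai1 and Camk2d, all 4 lower in the Itpkb-/- libraries. The same fit called 18.1% of all genes, 9.15% higher and 8.97% lower. All mutant values lay on 1 side of all wild-type values in 8 members (26.7%), beside 21.3% of all genes. Those 8 were Plcg2 and Atp2a2, higher in all Itpkb-/- libraries, and Plcb2, Itpr3, Orai1, Camk2d, Nfatc1 and Nfatc2, lower in all of them. From the recovered reads, edgeR (quasi-likelihood) called 3 members, Nfatc2, Plcb2 and Plcg2, beside 6.02% of all genes.

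**Figure D1:**
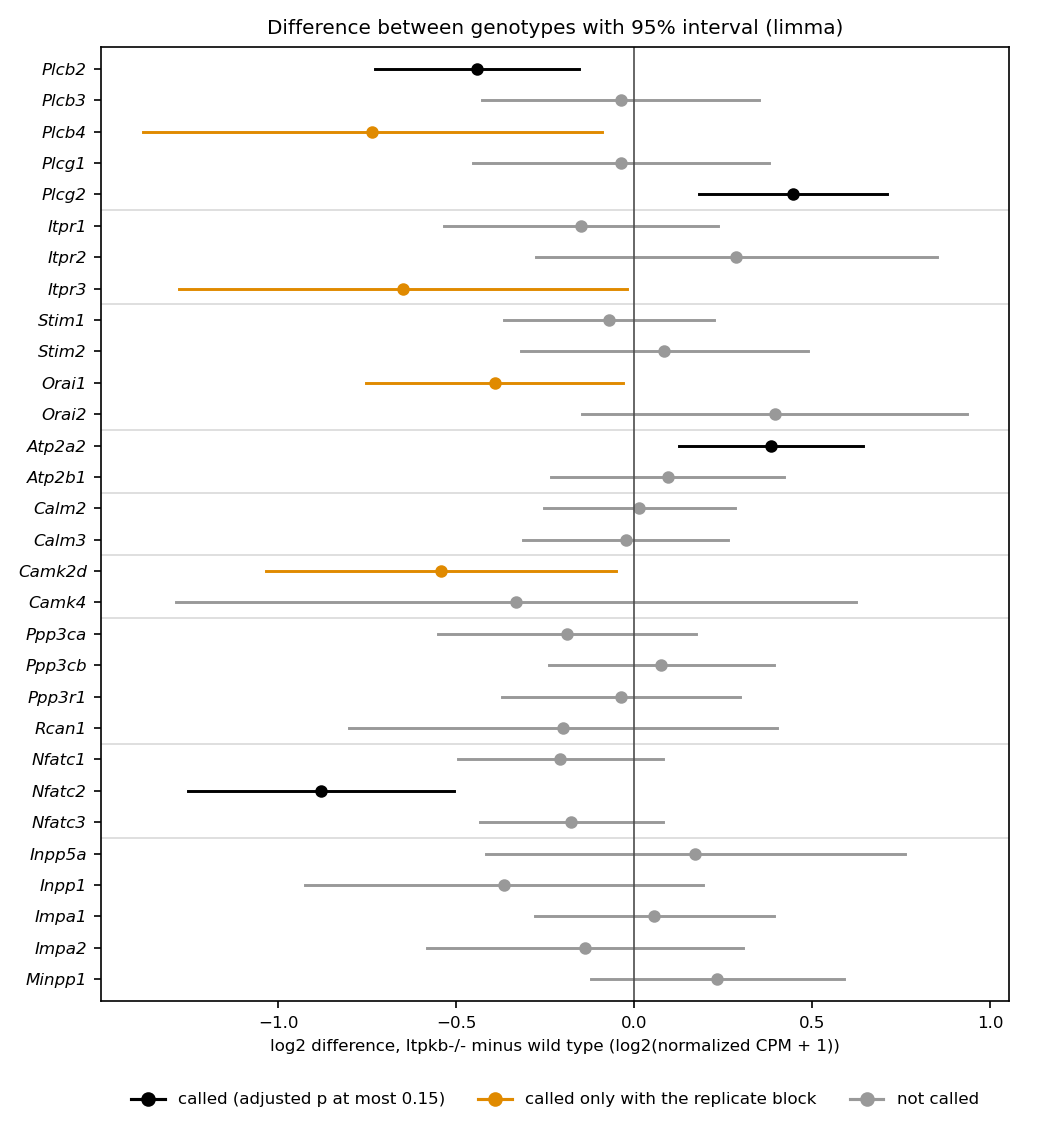
The log2 difference of each of the 30 genes (x axis, Itpkb-/- minus wild type on the log2(normalized CPM + 1) scale) with its 95% confidence interval from limma, ordered by role and separated by grey lines. Black intervals are the 4 genes called (adjusted p no higher than 0.15), orange ones the 4 called only with the replicate block, and grey ones the others, whose intervals include 0.

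Compared per kilobase of annotated exon, the calmodulin genes were the most abundant of the set. In the wild-type libraries Calm2 was at 462 ± 43.5 normalized CPM per kilobase (mean ± SD, n = 3) and Calm3 at 80.7 ± 4.74, followed by the calcineurin regulatory subunit Ppp3r1 at 48.9 ± 3.41, Plcg2 at 41.5 ± 2.09 and Orai1 at 36.9 ± 4.72. Plcb2 at 30.2 ± 2.34 and Atp2a2 at 30.1 ± 1.48 did not differ beyond their spread. The lowest was Camk4 at 0.814 ± 0.636. In this order Nfatc2 was at place 12 of 30 in the wild-type libraries, at 8.56 ± 1.27, and at place 20 in the Itpkb-/- libraries, at 4.61 ± 0.667. These orders use all annotated exons of a gene as its length, and places shift with the length chosen: with the longest transcript, wild-type Nfatc2 was at place 14, and Camk2d moved from place 29 (1.79 normalized CPM per kilobase) to place 22 (7.30). Calmodulin genes have near-identical coding sequences, so the division of reads among them is uncertain.

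**Figure D2:**
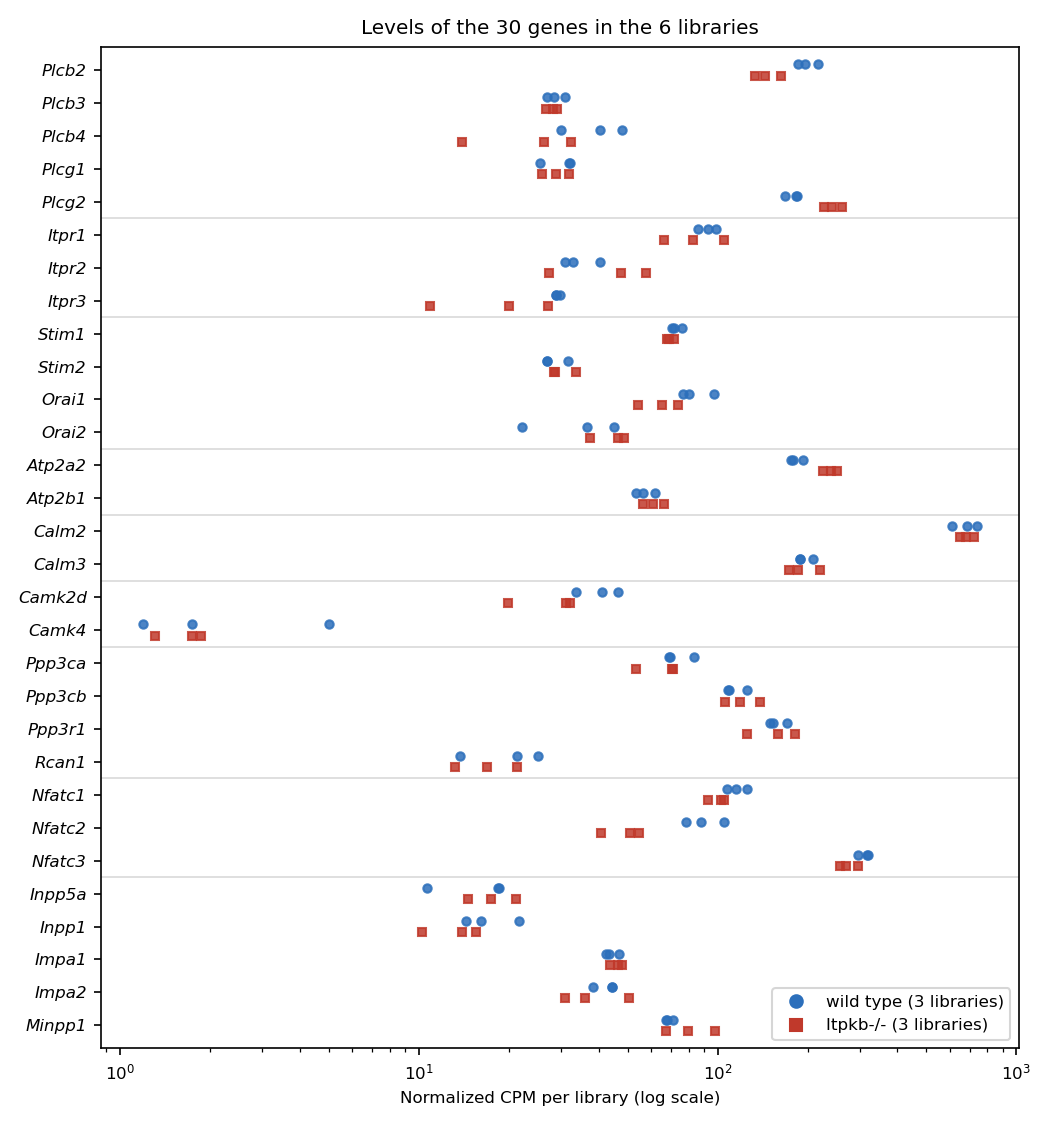
Normalized CPM in each library (x axis, log scale) for the 30 genes by role, with wild-type libraries as blue circles and Itpkb-/- libraries as red squares. Nfatc2, Plcg2 and Atp2a2 show the widest clear gaps between genotypes, Camk4 lies near 1 to 5 normalized CPM, and most other genes have intermixed symbols.

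Among the phospholipases C, Plcg2 rose and Plcb2 fell. Plcg2, the form activated by tyrosine kinases in blood cells (chr8:117498291-117635142, plus strand, mm10), was at 227, 242 and 261 normalized CPM in mutant libraries 1 to 3, against 168, 183 and 184 in wild-type libraries 1 to 3. Every mutant library was above every wild-type library. Its log2 difference was 0.45 (SE 0.12, 95% interval 0.18 to 0.71, limma adjusted p = 0.105).

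Plcb2, a form activated by G proteins (chr2:118707517-118728438, minus strand, mm10), was at 134, 163 and 144 normalized CPM in mutant libraries 1 to 3, against 196, 186 and 216 in wild-type libraries 1 to 3. All mutant libraries were below all wild-type ones, with Itpkb-/- library 2 nearest to them. The log2 difference was -0.44 (SE 0.13, 95% interval -0.73 to -0.15, limma adjusted p = 0.133). These calls depended on single libraries: without any 1 of the 6, Plcb2 was no longer called (adjusted p = 0.154 to 0.417, lowest without Itpkb-/- library 2 and highest without wild-type library 3). Plcg2 was called without Itpkb-/- library 1 (adjusted p = 0.0828), but not without Itpkb-/- library 2 or 3 (0.219 and 0.205) or wild-type library 1, 2 or 3 (0.269, 0.214 and 0.302).

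Plcb4, another G protein-activated form, was at 13.9, 26.3 and 32.2 normalized CPM in mutant libraries 1 to 3, against 29.8, 40.4 and 48.0 in wild-type libraries 1 to 3. The groups overlapped, since Itpkb-/- library 3 was above wild-type library 1, but each mutant library was below the wild-type library of its number. The log2 difference of -0.74 (SE 0.29) was not called (limma adjusted p = 0.26), whereas with the replicate block the adjusted p was 0.0231. Plcb3 and the broadly expressed Plcg1 had intermixed libraries between 25.4 and 32.0 normalized CPM, with 95% intervals of -0.43 to 0.35 and -0.45 to 0.38 on the log2 scale.

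Because all genes of a library share its scaling, the opposite movement of both phospholipases was also read as a ratio of normalized CPM within each library, with nothing added, which no scaling of a library alters. In mutant libraries 1 to 3 the log2 ratio of Plcg2 to Plcb2 levels was 0.76, 0.57 and 0.86. In wild-type libraries 1 to 3 it was -0.22, -0.03 and -0.23, lower than in every mutant library. This separation follows from the levels above, since every mutant library had more Plcg2 and less Plcb2 than every wild-type library. The pair was also picked from these data, so the separation of the ratio adds no support of its own. This ratio is not corrected for length, so its sign does not order the 2 genes. With exon length corrected, Plcg2 averaged above Plcb2 in both genotypes. The means were 56.6 against 22.3 normalized CPM per kilobase in the mutant and 41.5 against 30.2 in the wild type. Per kilobase of exon, Plcg2 made up 63.5% ± 1.88 (SD, n = 3) of the summed level of the 5 phospholipase C members in the Itpkb-/- libraries and 49.4% ± 1.29 in the wild-type libraries. Plcb2 made up 25.0% ± 1.88 against 36.0% ± 2.02. A share within a family shows unequal change and does not tell which gene moved.

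The IP3 receptors, the channels that release stored calcium, were not called in either direction by limma or edgeR, and 1 of the 3, Itpr3, had an unadjusted p under 0.05. Itpr3 was at 10.9, 20.0 and 27.0 normalized CPM in mutant libraries 1 to 3, against 29.6, 28.7 and 28.9 in wild-type libraries 1 to 3. All mutant libraries were below the wild-type ones, but they spread far more: the coefficient of variation was 41.8% against 1.65%, the mutant library 3 lying near the wild-type level. Its log2 difference was -0.65 (SE 0.29, limma adjusted p = 0.304, and 0.108 with the replicate block). Without Itpkb-/- library 3 the log2 difference was -0.93 and Itpr3 was called (adjusted p = 0.143), as was Plcb4 (adjusted p = 0.145), and without Itpkb-/- library 1 that of Itpr3 was -0.31 (adjusted p = 0.493).

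Itpr1 ranged from 66.2 to 105 normalized CPM in the Itpkb-/- and from 86.0 to 98.9 in the wild-type libraries, with a 95% interval of -0.53 to 0.23. Itpr2 ranged from 27.2 to 57.7 and from 30.8 to 40.4, with an interval of -0.28 to 0.85. Both intervals include 0 and are too wide to show that the levels were alike. Itpr1 held a like share of the summed IP3 receptor level per kilobase in both genotypes, 48.3% ± 5.88 and 47.6% ± 0.876, while the share of Itpr2 was 30.4% ± 5.40 in the Itpkb-/- and 22.0% ± 1.86 in the wild-type libraries and that of Itpr3 21.3% ± 3.46 and 30.4% ± 2.24.

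**Figure D3:**
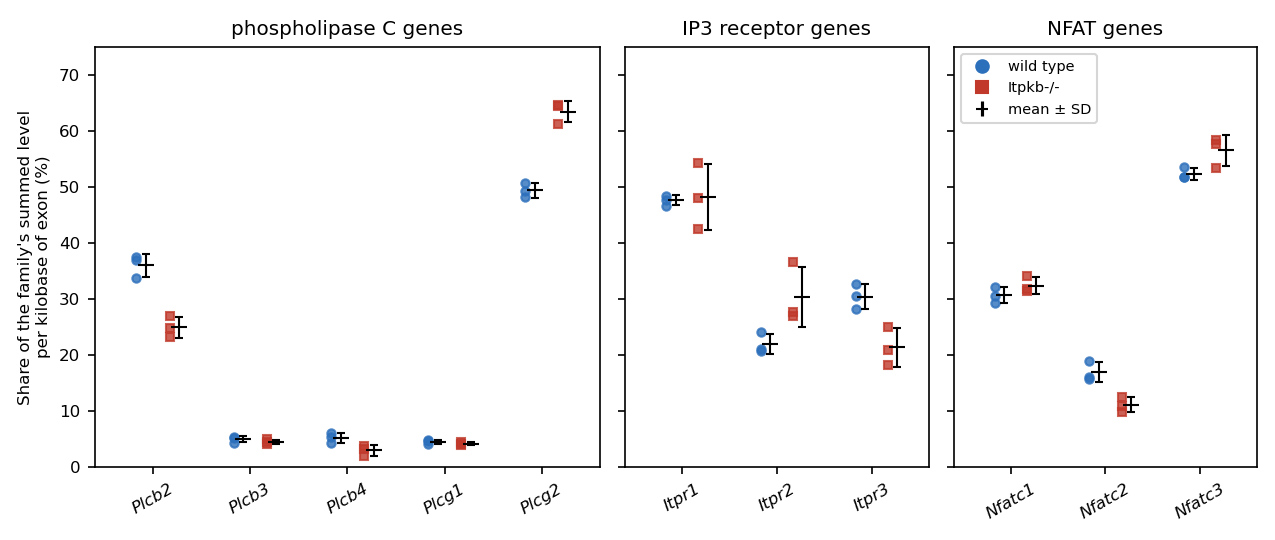
Share of each gene in the summed level per kilobase of exon of its family (y axis, percent), per library and as mean ± SD of 3 libraries, for the phospholipase C, IP3 receptor and NFAT members. Plcg2 took 63.5% in the Itpkb-/- libraries against 49.4% in wild type, and Nfatc2 11.1% against 16.9%, without overlap between genotypes in either gene.

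In store-operated calcium entry, the channel gene Orai1 had the smallest p but was not called without the block. It was at 73.8, 65.1 and 54.3 normalized CPM in mutant libraries 1 to 3, against 97.0, 76.8 and 80.0 in wild-type libraries 1 to 3. Its libraries did not overlap, though the highest mutant value lay close to the lowest wild-type one. The log2 difference was -0.39 (SE 0.16, limma adjusted p = 0.28, and 0.0716 with the replicate block).

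Its paralogue Orai2 was at 37.5 to 48.8 normalized CPM in the mutant libraries, against 22.1 to 45.0 in the wild-type libraries, where library 1 was lowest, and the 95% interval was -0.15 to 0.94. The calcium sensors of the store were the most even members of this group: Stim1 lay between 67.5 and 75.8 normalized CPM and Stim2 between 26.8 and 33.7 over all 6 libraries, with 95% intervals of -0.37 to 0.22 and -0.32 to 0.49.

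Of the calcium pumps, Atp2a2 rose. Atp2a2, the SERCA2 pump that returns calcium to the endoplasmic reticulum (chr5:122453513-122502225, minus strand, mm10), was at 226, 240.4 and 251 normalized CPM in mutant libraries 1 to 3, against 176, 193 and 179 in wild-type libraries 1 to 3. The groups did not overlap. The log2 difference was 0.38 (SE 0.12, 95% interval 0.13 to 0.64, limma adjusted p = 0.144), and the edgeR quasi-likelihood test gave an adjusted p of 0.153. Atp2a2 was called without Itpkb-/- library 1 (adjusted p = 0.113), but not without Itpkb-/- library 2 or 3 (0.305 and 0.26) or wild-type library 1, 2 or 3 (0.319, 0.239 and 0.409). Atp2b1, a plasma membrane pump that expels calcium, overlapped between 53.4 and 66.3 normalized CPM, with a 95% interval of -0.23 to 0.42.

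The calmodulin genes Calm2 and Calm3 were not called, and their differences were near 0. Calm2 averaged 683 ± 35.8 normalized CPM (SD, n = 3) in the Itpkb-/- and 678 ± 63.8 in the wild-type libraries, and Calm3 193 ± 23.9 and 196 ± 11.5. Their 95% intervals, which together ran from -0.31 to 0.28 on the log2 scale, leave room for differences of that size.

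Camk2d, a calmodulin-dependent kinase, was at 31.1, 19.9 and 32.1 normalized CPM in mutant libraries 1 to 3, against 41.0, 33.6 and 46.4 in wild-type libraries 1 to 3. The groups did not overlap, and library 2 was the lowest of each. The log2 difference was -0.54 (SE 0.22, limma adjusted p = 0.272, and 0.0617 with the replicate block). Camk4 was the 1 member below 10 normalized CPM in every library, at 1.31 to 1.86 in the Itpkb-/- and 1.20 to 5.03 in the wild-type libraries, values that rest on few reads.

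Calcineurin showed no called member. Its catalytic subunits Ppp3ca and Ppp3cb averaged 64.9 ± 10.02 and 121 ± 16.4 normalized CPM in the mutant group, against 73.8 ± 8.54 and 114 ± 9.98 in the wild type (SD, n = 3). The regulatory subunit Ppp3r1 averaged 155 ± 28.0 and 158 ± 11.02. Rcan1, an inhibitor of calcineurin whose internal promoter is shown above, was at 21.3, 13.2 and 16.9 normalized CPM in mutant libraries 1 to 3, against 21.4, 13.8 and 25.1 in wild-type libraries 1 to 3. The groups overlapped, with library 2 lowest in each, and the log2 difference of -0.20 had a 95% interval of -0.80 to 0.40 (limma adjusted p = 0.79). The limma adjusted p of these 4 genes was 0.641 or above, and 0 of them had an unadjusted p under 0.05 or were called by edgeR.

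All 3 NFAT genes had negative differences, but Nfatc2 alone was called. Nfatc2 (chr2:168476410-168601657, minus strand, mm10), a calcium-regulated NFAT factor also known as NFAT1, was at 50.8, 40.9 and 54.5 normalized CPM in mutant libraries 1 to 3, against 105, 78.5 and 88.2 in wild-type libraries 1 to 3. The highest mutant library was well below the lowest wild-type library. The log2 difference was -0.88 (SE 0.17, 95% interval -1.25 to -0.51, limma adjusted p = 0.033), and edgeR gave an adjusted p of 0.0219. Nfatc2 was called in 5 of the 6 fits that left out 1 library (limma adjusted p = 0.0411 to 0.114). It was not called without wild-type library 3 (0.189), where the log2 difference was still -0.89. Of the 6 fits, that one called the fewest genes.

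Nfatc1 was at 102, 93.1 and 105 normalized CPM in mutant libraries 1 to 3, against 115, 107 and 125 in wild-type libraries 1 to 3. Its libraries did not overlap, yet the gap was small, and the log2 difference of -0.21 (SE 0.13, 95% interval -0.50 to 0.08) was not called (limma adjusted p = 0.493, and 0.276 with the replicate block). Nfatc3, the most abundant NFAT gene per kilobase, averaged 274 ± 19.5 normalized CPM in the Itpkb-/- and 309.8 ± 12.6 in the wild-type libraries (SD, n = 3), with a 95% interval of -0.43 to 0.08. The log2 ratio of Nfatc2 to Nfatc3 was -2.54, -2.72 and -2.24 in mutant libraries 1 to 3, against -1.60, -1.91 and -1.84 in the wild type, lower in each mutant library. Nfatc2 made up 11.1% ± 1.35 of the summed NFAT level per kilobase in the Itpkb-/- libraries and 16.9% ± 1.75 in the wild-type libraries.

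**Figure D4:**
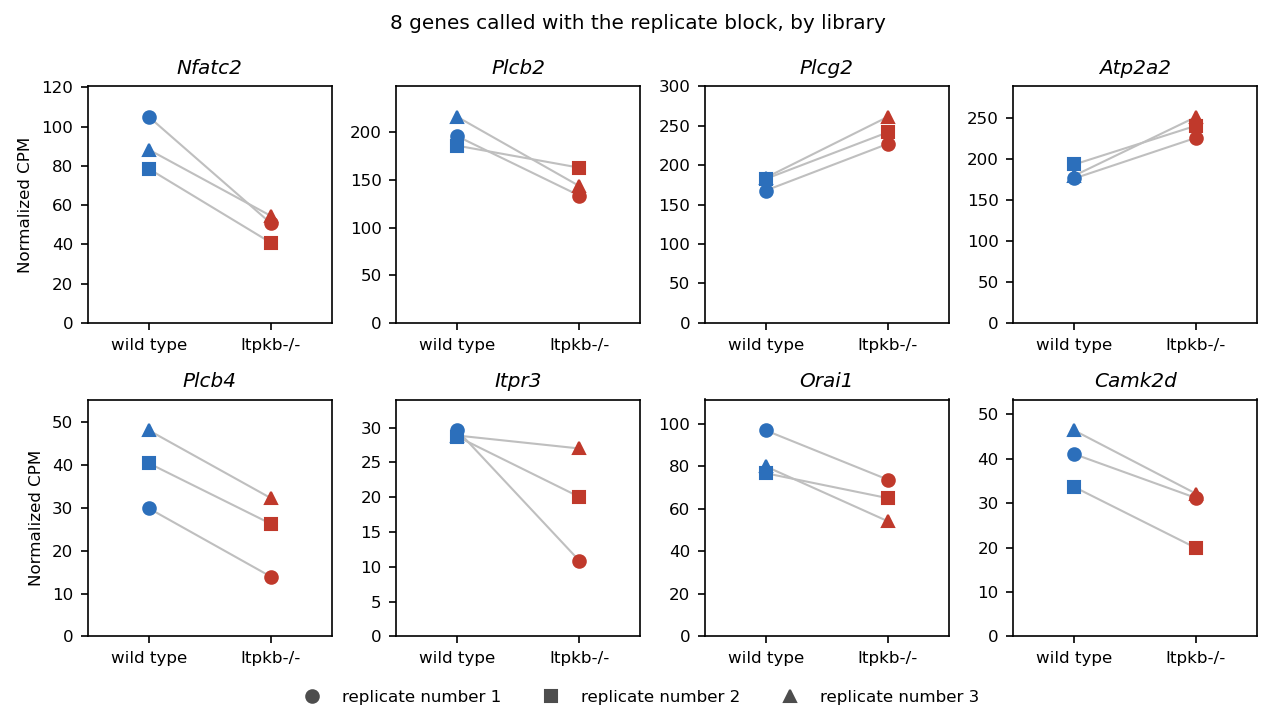
Normalized CPM (y axis, from 0) of the 8 genes called with the replicate block, in wild-type (blue) and Itpkb-/- (red) libraries, with grey lines joining libraries of the same replicate number. The lines of Nfatc2, Plcb2, Plcb4, Itpr3, Orai1 and Camk2d all slope down toward Itpkb-/- and those of Plcg2 and Atp2a2 all slope up, and the 3 lines of Plcb4 are nearly parallel although its groups overlap.

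None of the 5 inositol phosphatases was called, the lowest limma adjusted p among them was 0.544, and 0 of them had an unadjusted p under 0.05 or were called by edgeR. Inpp5a, which removes a phosphate from IP3, averaged 17.7 ± 3.26 normalized CPM in the Itpkb-/- and 15.9 ± 4.51 in the wild-type libraries (SD, n = 3). Inpp1, which acts further down on inositol bisphosphate, averaged 13.3 ± 2.73 and 17.4 ± 3.74. The monophosphatases Impa1 and Impa2, which release free inositol and are inhibited by lithium, averaged 46.0 ± 2.21 and 44.2 ± 2.25, and 39.2 ± 10.3 and 42.4 ± 3.55. Minpp1, a phosphatase of higher inositol phosphates, averaged 81.7 ± 15.6 and 68.6 ± 1.91, highest in Itpkb-/- library 2 at 98.2. The libraries of the genotypes overlapped in all 5 genes, and their 95% intervals together ran from -0.93 to 0.76 on the log2 scale. Minpp1, Impa2 and Ppp3r1 each share over 10% of their exon bases with another annotated gene (23.8%, 23.55% and 14.3%). Reads within the shared bases could not be told apart from those of the other gene.

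Among 137 other genes of the pathway, listed by role, 105 were tested, 6 rose and 3 fell by the same limma test, and their median log2 difference was 0.03. Those 9 are 8.57% of the tested ones, beside 5.5% of all genes. With the replicate block 14 were higher and 10 lower, 22.9% beside 18.1% of all genes. Of the 3 tested phospholipase C-related genes outside the members, 1 fell: Plcl1, which lacks phospholipase activity and binds IP3, averaged 13.2 ± 2.18 normalized CPM in the Itpkb-/- and 26.2 ± 8.24 in the wild-type libraries, with a log2 difference of -0.90 (adjusted p = 0.139). Of 12 tested G proteins, kinases and adaptors that activate phospholipase C, 1 rose: the adaptor Lat2, at 10.7 ± 2.93 against 5.05 ± 0.193 (log2 difference 0.93, adjusted p = 0.147). None of 16 genes of the diacylglycerol arm, 9 inositol phosphate kinases, 12 other inositol phosphatases or 9 other calmodulin and kinase genes was called by limma or edgeR, although 5, 1, 1 and 1 of them had an unadjusted p under 0.05, which 15.5% of all genes had. With the replicate block 2 genes of the diacylglycerol arm were called higher and 2 lower, 1 inositol phosphate kinase lower (Itpkb itself) and 1 other inositol phosphatase higher. The block also called 1 more of the phospholipase C-related genes lower. Among the activators of phospholipase C it called 2 more higher and 1 lower. It called 1 more gene of calcium entry higher and 2 other pumps and exchangers lower. In the list of other NFAT genes and kinases it called Nfatc2ip and Homer2 higher, neither of which encodes an NFAT factor.

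Of 17 other genes of calcium entry and mitochondrial uptake, 2 rose. P2rx7, an ATP-gated cation channel, averaged 12.5 ± 2.66 against 5.74 ± 0.63 normalized CPM (log2 difference 0.99, limma adjusted p = 0.107), and Mcu, the pore of the mitochondrial calcium uniporter, 22.0 ± 3.17 against 12.8 ± 1.97 (0.74, adjusted p = 0.146). Of 6 other pumps and exchangers 1 rose, the sodium, calcium and potassium exchanger Slc24a3, at 9.58, 7.61 and 6.29 normalized CPM in mutant libraries 1 to 3, against 4.23, 0.448 and 1.30 in wild-type libraries 1 to 3 (log2 difference 1.75, adjusted p = 0.0945). The lowest of these wild-type values corresponds to 3 reads, so the size of that difference is uncertain. Of 8 other calcineurin genes 1 fell: Fkbp1a, which encodes FKBP12, the target through which the drug FK506 blocks calcineurin, averaged 125 ± 5.26 against 188 ± 21.7 (log2 difference -0.58, adjusted p = 0.058). Of 9 genes listed with NFAT and its kinases 1 fell, Nfat5, the member of the family that does not depend on calcineurin. It averaged 167 ± 30.3 against 240.1 ± 26.1 normalized CPM (log2 difference -0.53, limma adjusted p = 0.119).

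Of 14 genes known as NFAT targets in lymphocytes, 10 were too low to test, 6 of them with 0 reads in every library (Csf2, Il2, Il3, Ifng, Fasl and Cd40lg). Of the 4 tested, 2 rose. Nr4a1, an early response nuclear receptor, was at 15.03, 15.8 and 13.6 normalized CPM in mutant libraries 1 to 3, against 7.46, 3.44 and 4.10 in wild-type libraries 1 to 3 (log2 difference 1.46, SE 0.30, limma adjusted p = 0.0432). Cd69, an early activation antigen of lymphocytes, was at 10.2, 10.3 and 7.60 in mutant libraries 1 to 3, against 1.74, 2.39 and 2.05 in wild-type libraries 1 to 3 (1.75, SE 0.30, adjusted p = 0.0224). Neither gene overlapped between genotypes. Both respond to many signals besides NFAT. With 1 library left out in turn, Cd69 was called in all 6 fits (adjusted p of 0.12 at most), and Nr4a1 and Fkbp1a in 5 of 6, not without wild-type library 3 (adjusted p = 0.207 and 0.285). The other 6 called pathway genes were each called in at most 2 of the 6 fits: the highest adjusted p was 0.431 for Plcl1, 0.331 for P2rx7, 0.377 for Mcu, 0.299 for Slc24a3 and 0.409 for Nfat5, each without wild-type library 3, and 0.431 for Lat2, without Itpkb-/- library 2.

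**Figure D5:**
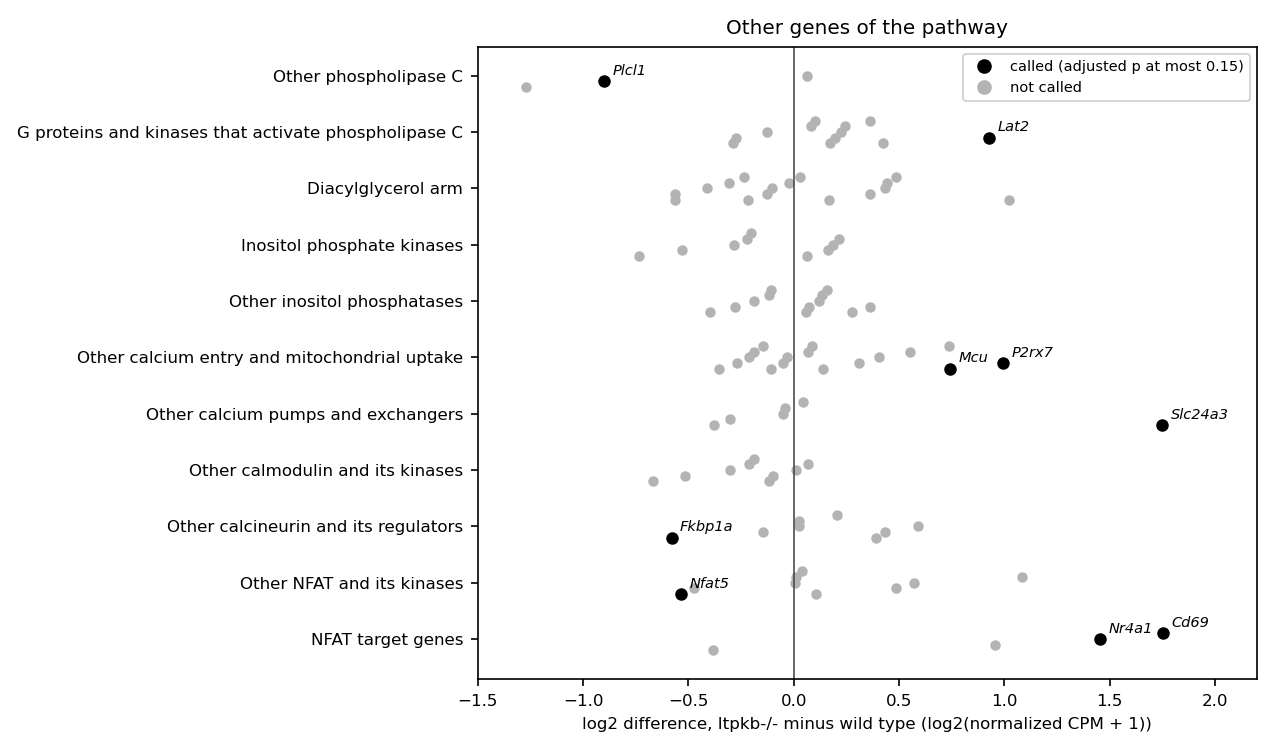
The log2 difference (x axis, Itpkb-/- minus wild type on the log2(normalized CPM + 1) scale) of the 105 tested genes of the pathway outside the 30, in 11 lists by role, with called genes in black and named. The 6 genes higher in the Itpkb-/- libraries lie in the upstream adaptor, calcium entry, exchanger and NFAT target lists, and the 3 lower ones, Plcl1, Fkbp1a and Nfat5, in the phospholipase C, calcineurin and NFAT lists.

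Replicate spread of the members was set beside that of all tested genes of at least the same mean, members included, without matching their levels. Over the 29 members with a mean of at least 10 normalized CPM, the median coefficient of variation was 13.6% in the Itpkb-/- and 8.37% in the wild-type libraries, beside 15.6% and 13.2% over 9006 genes of at least that mean. It was larger in the Itpkb-/- group in 18 of the 30 members. Between same-numbered libraries, Stim1 differed by -0.09 to -0.06 and Stim2 by 0.08 to 0.09 on the log2 scale.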

How the data were processed

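Strand-unspecific RNA libraries were made from 1 to 5 ng of RNA with the NuGEN Ovation RNA-Seq System V2, per the labels' protocols. Per the submitters' processing notes, reads went through CASAVA 1.8.2, cutadapt, TopHat2 2.0.8b (build mm10), Partek and edgeR, whereas the series design text gives TopHat 1.4.1 and Partek 6.6. The authors deposited a normalized signal per gene, gene counts divided by 1 factor per library, on the scale of CPM. Read numbers recovered from it were whole in 100% of values (tolerance 0.01 read), and 3 reads, the floor taken here, equalled 0.393 to 0.746 normalized CPM. Without molecular identifiers, that floor reflects only counting error.

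From this signal, limma 3.58.1 (R 4.3.3) with a mean-variance trend was fitted on log2(value + 1) for the 12008 genes that reached 1 in 3 or more libraries, with Benjamini-Hochberg adjustment over all of them. Fold changes on this scale understate the change of low genes. A gene was called, and is said to rise or fall, at an adjusted p of at most 0.15. edgeR 4.0.16 and DESeq2 1.42.0 on the recovered reads were alternatives. The limma fit without the replicate block was also run on simulated counts with known changes, and its outcome is not reported here. That simulation had no pairing of libraries, and the block fit, edgeR and DESeq2 were not run on it. Same-numbered libraries deviated together (correlations of 0.296, 0.268 and 0.284 across genes, against -0.048 or below for other pairs). Deviations were taken from the mean of each genotype. Positive values for same-numbered pairs thus by themselves push the other pairs below 0. The numbers were taken as pairs from the data, since the labels do not say what they mark. The block was therefore chosen from the same data to which it was fitted. Values with the replicate block are printed where they change the call of a member or of Itpkb, and as counts for the other lists.

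The members, the other gene lists and the marker lists were chosen with earlier results of these data known. All members are named. Those called, with or without the block, or without overlap are given in full, and of the other pathway genes those called. Positions are those of GENCODE M21 on mm10, and promoters those of RefSeq on GRCm38.p6. Protein sequences were not used here.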

Additional observations from a re-analysis of the deposited data

How the results depend on the processing

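With 3 libraries a genotype, calls near the limit turned on single libraries and settings. Against 4 members, 661 genes and 9 other pathway genes, the replicate block, which uses the pairing of the numbers, called 8 members, 2176 genes and 24 other pathway genes. Leaving out 1 library in turn gave 0 to 3 members by limma, 74 to 837 genes, 1 to 10 other pathway genes and member medians of -0.11 to -0.034. The fit without wild-type library 3 called 0 members and also the fewest genes, 74 of 12008. In that fit 4 members had an unadjusted p under 0.05. No filter beyond 1 read gave 2 members, 452 of 15599 genes and 4 other pathway genes. A filter of average log2 CPM above 4 gave 2 of 28 members, 349 of 7945 genes and 2 of 74 other pathway genes. Total count scaling, which moved the median of all genes by -0.03, gave 2 members, Nfatc2 and Plcb2, and 610 of 12008 genes. An adjusted p of at most 0.05 gave 1 member, 182 genes and 2 other pathway genes. Without both libraries numbered 2, limma called 1 member, 139 genes and 0 other pathway genes (11 at an unadjusted p under 0.05). DESeq2 called 4 members and 883 of 12952 genes, and the edgeR exact test 3 members and 848 of 11486 genes.

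Of 508 results of a member under an alternative, 455 kept direction and side of the limit, 28 lost the call, 6 gained it and 19 reversed, all in 10 members that were not called. Calm2 was at -0.022 with total count scaling, and Plcb3 and Ppp3r1 at 0.048 and 0.072 without both libraries numbered 2. With 1 library left out in turn, the differences ran from -0.14 to 0.035 for Plcg1, -0.32 to 0.014 for Itpr1, -0.12 to 0.047 for Calm3, -0.024 to 0.17 for Ppp3cb, -0.33 to 0.012 for Impa2, -0.16 to 0.11 for Ppp3r1, -0.059 to 0.078 for Calm2, -0.074 to 0.30 for Inpp5a, -0.085 to 0.015 for Plcb3, and -0.63 to 0.099 for Camk4. The cause of these shifts was not tested. Depth limits the lowest genes, such as Camk4 and Slc24a3.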
